A study of Mus musculus with 8 samples.

Results

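RNA-Seq of P14 CD8 T cells was used to ask what remained, after a long rest, of a longer period of antigen stimulation. The comparison holds 4 of the 8 libraries of the series, taken by their labels: 2 Acute-7d and 2 Acute-2d libraries, all collected on day 19. P14 cells have a T cell receptor, encoded by a transgene, that recognizes GP33, a peptide of the virus LCMV, and here they were taken from the spleens of mice and activated for 2 days on plates coated with antibodies to CD3 and CD28. Acute-2d cells then received no GP33, whereas Acute-7d cells were restimulated with GP33 up to day 7. Both were then kept in medium without peptide up to day 19, Acute-2d cells from day 2 and Acute-7d cells from day 7. The length of stimulation, exposure to GP33 and the time since the last stimulation therefore differ together. Their parts in the differences below cannot be told apart. The other 4 libraries of the series are Effector (day 7) and T_Dysf (GP33 up to day 19, with TGFβ1 from day 7). They entered the fit, and their values are given side by side with those of the Acute cells. According to the methods of the study, the P14 mice were bred on a C57BL/6 background, activated cells were pooled on day 2 and cultured with IL-2 and IL-15, and viable CD8 T cells were sorted. The legends of the study call the libraries of a condition biological replicates and do not say whether these are separate mice or cultures, so p-values measure the spread between these libraries. The labels give neither the age nor the sex of the mice.

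A naive CD8 T cell that meets antigen divides, switches from oxidative metabolism to glycolysis and makes granzymes, perforin and interferon-γ. When antigen is cleared, some of these cells return to rest as memory cells, which express transcription factors such as Tcf1 (encoded by *Tcf7*) and homing receptors such as Ccr7. When antigen persists, cells instead keep inhibitory receptors such as PD-1, Tim3 and Tigit and lose the memory program. Both Acute conditions ended in rest without peptide.

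The deposited values are normalized counts, that is, estimated reads per gene that the authors scaled for the depth of each library. By the worth of 1 read in each library, the 4 libraries held 19382100 to 20925300 reads on genes, and 3 reads, taken as the floor of detection, were worth 3.03 to 3.35 normalized counts. All 10 markers of CD8 T cell identity were present, with a summed level of 119600 to 124200 normalized counts in the 4 libraries. In 3 of the 10, among these *Cd8a* and *Cd8b1*, both Acute-7d libraries lay below both Acute-2d libraries, and in 2 both lay above. *Cd8b1* had 7555 and 7879 in Acute-7d and 10110 and 10220 in Acute-2d. Of 4 CD4 T cell markers, *Cd4* lay at about 1 read in all 4 libraries, and *Zbtb7b* at 1041 to 1625 normalized counts. *Foxp3* alone was higher in both Acute-7d libraries, at 49.5 and 45.15 against 15.3 and 10.2. The part of CD4 T cells in these values was not tested. Acute-7d replicate 1 stood apart from the other 3 libraries. Its name carries the prefix RESUB, which the labels do not explain and which both Effector libraries share. *Xist*, the RNA that silences 1 X chromosome in female cells, had 54.5 normalized counts in this library and 22106 to 30427 in the other 3, while the Y-linked gene *Ddx3y* had 2161 in it and 0 in the other 3. Both Effector libraries had the same pattern (*Xist* 115 and 53.5, *Ddx3y* 1334 and 1491), whereas the T_Dysf libraries had 21870 and 22310 of *Xist*. The sex-linked genes and the prefix therefore coincide in all 8 libraries, and both split the Acute-7d pair. By these genes the Acute-7d replicates held male and female cells, and so cells of different mice. The parts of sex and prefix in the values below cannot be told apart and were not tested. Each result below was also computed without Acute-7d replicate 1.

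Libraries were compared in pairs first. Among the 12028 genes whose mean over the 8 libraries was at least 50, 373 differed at least 2-fold between the Acute-7d replicates and 244 between the Acute-2d replicates. Between conditions, 325 and 377 genes differed at least 2-fold when Acute-7d replicate 2 was set against the Acute-2d libraries, and 578 and 718 when Acute-7d replicate 1 was. The Euclidean distance over all genes was 121 to 141 between conditions, 127 within Acute-2d and 128 within Acute-7d. Acute-7d replicate 2 was therefore about as close to the Acute-2d libraries as replicates were to each other, although these distances were not tested.

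**Figure D1:**
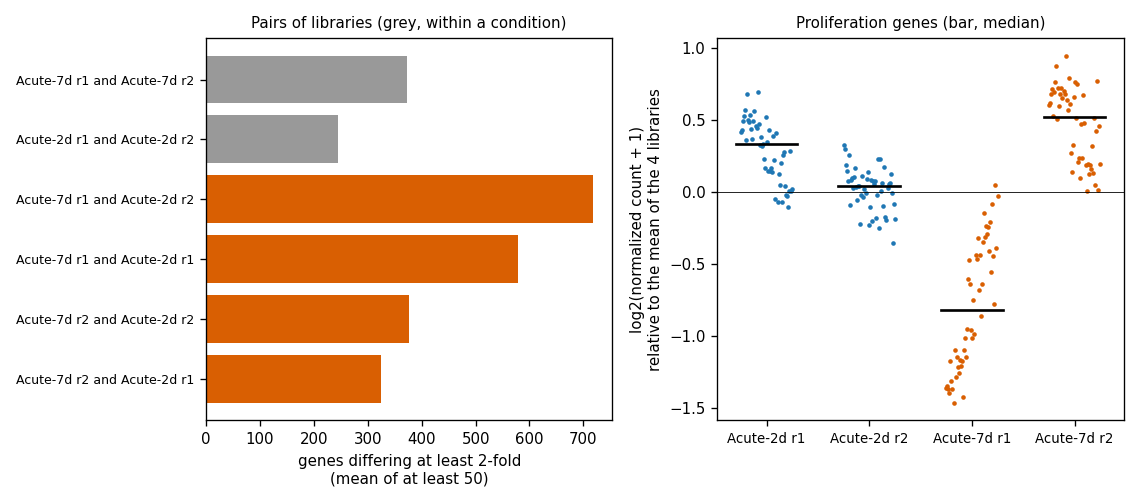
Left, the number of genes with a mean of at least 50 that differed at least 2-fold for each of the 6 pairs of Acute libraries, where grey bars are pairs within a condition (373 and 244) and orange bars are pairs between conditions (325 to 718). Right, the 50 proliferation genes in each Acute library, on log2(normalized count + 1) relative to the mean of the 4 libraries, with the median as a bar: the 2 Acute-7d libraries lie at the lower and the upper end, at -0.82 and 0.52.

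Differentially expressed genes (DEGs) were called with limma on log2(normalized count + 1), in 1 fit of all 24303 genes and 8 libraries, where the fold change reached 2 and the p adjusted by Benjamini-Hochberg was under 0.05. There were 41 DEGs, or 0.169% of the genes tested, of which 19 were higher and 22 lower in Acute-7d. Of these, 39 had a mean under 50, and in each of the 39 both libraries of 1 condition lay at or under 3 reads. In 33 of the 39, no Acute library exceeded 3 reads, so these calls rest on very few reads. The count ran from 61 to 376 when 1 of the 8 libraries was left out, and was 168 without Acute-7d replicate 1. The 2 with the most reads among the 39, chosen after their values were seen, were *Pdgfrl*, at 11.6 and 17.3 normalized counts in Acute-2d and 0 in both Acute-7d libraries, and *Cphx2*, at 21.2 and 16.2 in Acute-7d and 0 and 0.0825 in Acute-2d.

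Only 2 DEGs, or 0.0166% of the genes with a mean of at least 50, were well expressed, and both rose. *Arsb* (chromosome 13, 93771630 to 93943016), which encodes the lysosomal enzyme arylsulfatase B, had 1509 and 1484.5 normalized counts in Acute-7d and 505 and 464 in Acute-2d, a log2 difference of 1.63 (standard error 0.11, limma adjusted p = 0.0190). It was higher still in Effector (3416 and 2907) and T_Dysf (1938 and 2213), and without Acute-7d replicate 1 the difference was 1.62 (limma adjusted p = 0.0682). *Ttc39c*, a gene of the tetratricopeptide repeat family, had 1392 and 1266 normalized counts in Acute-7d and 632 and 635 in Acute-2d, a log2 difference of 1.07 (standard error 0.09, limma adjusted p = 0.0463). Without Acute-7d replicate 1 it was 0.998 (limma adjusted p = 0.105). In both genes the gap between the conditions was wide next to the spread of the replicates.

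To describe the many genes with larger but less even differences, genes with a mean of at least 50 were counted when they differed at least 2-fold and the 2 libraries of one condition both lay above the 2 of the other. There were 80 such genes higher in Acute-7d (0.665%) and 157 lower (1.31%), and 218 of these 237 genes are protein-coding. Without Acute-7d replicate 1, 178 of the 237 kept a 2-fold difference in the same direction. Without regard to size, the conditions did not overlap in 18.6% of the 12028 genes in the higher and 19.0% in the lower direction, and 446 (3.71%) and 520 (4.32%) genes passed an unadjusted p under 0.05 in limma. These shares are the background for the gene lists below. In a fit of the 2 conditions alone, restricted to genes with a mean of at least 50 and chosen after the data were seen, 18 genes were DEGs in the higher direction (0.150%) and 36 in the lower (0.299%). In this narrower fit the spread is estimated from the 4 Acute libraries only, whereas in the fit of all 8 it also includes the spread between the Effector and between the T_Dysf replicates. Genes described below as called in the narrower fit passed there and, apart from *Arsb* and *Ttc39c*, not in the fit of all 8.

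**Figure D2:**
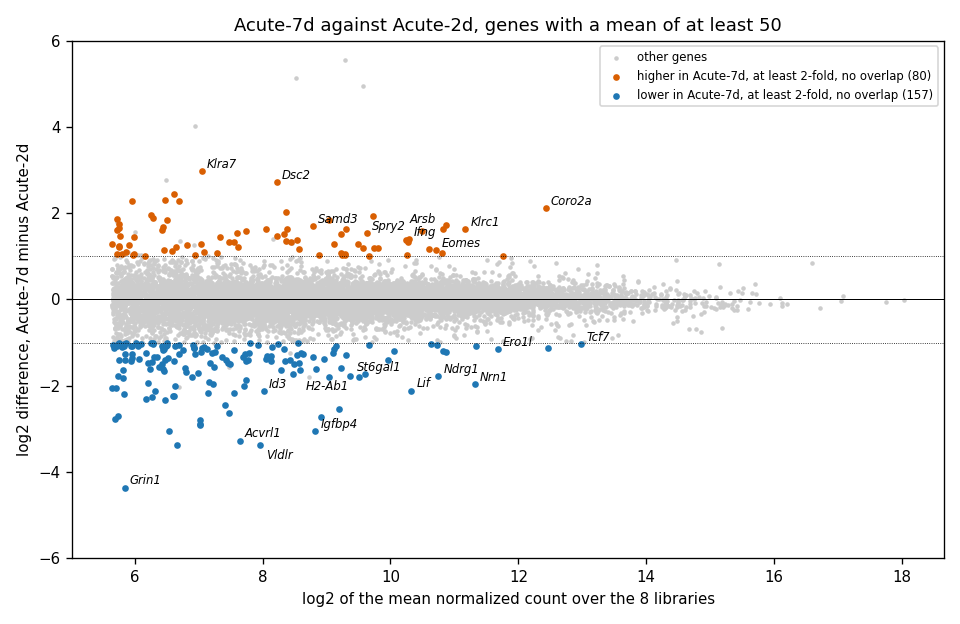
The log2 difference of each gene with a mean of at least 50 (Acute-7d minus Acute-2d) against the log2 of its mean normalized count over the 8 libraries, with *Xist* left out. Orange and blue points are the 80 genes higher and the 157 lower in Acute-7d by at least 2-fold (dotted lines) without overlap, and the 4 grey points above 4 are Y-linked genes, which among the 4 Acute libraries exceeded 3 reads in Acute-7d replicate 1 alone and were also present in both Effector libraries.

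The genes named next are the 12 with the largest differences in each direction among separated genes with an unadjusted p under 0.05 in the fit of all 8 libraries, leaving out sex-linked genes and pseudogenes. This filter passed over some differences of the same size, such as *Gm2808* in the higher and *Dntt*, *Selenbp1* and *P4ha2* in the lower direction. The 12 higher genes included receptors, adhesion molecules and cytoskeletal genes. *Coro2a*, which encodes an actin-binding coronin, had 1863 and 1898 normalized counts in Acute-7d and 602 and 312 in Acute-2d (log2 difference 2.11, standard error 0.34), and it was called in the narrower fit. Its levels in Effector (9383 and 6952) and T_Dysf (11938 and 11178) were above those of both Acute conditions. *Dsc2*, which encodes a desmosomal cadherin, had 196 and 125 normalized counts in Acute-7d and 27.4 and 19.4 in Acute-2d (log2 difference 2.71, standard error 0.47), and was called there as well. Of its partner *Dsg2*, the Acute-7d libraries held 221 and 82.8 and the Acute-2d libraries 24.2 and 23.8. *Tjp1*, the tight junction protein ZO-1, had 602 and 299 against 107 and 112, and in T_Dysf it reached 2854 and 2757. In all 3 genes both Acute-7d libraries lay above both Acute-2d libraries, but in *Dsg2* and *Tjp1* the 2 Acute-7d libraries differed at least 2-fold.

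The other genes of this group included *Adamts14*, a secreted metalloprotease, with 578 and 643 normalized counts in Acute-7d and 207 and 137 in Acute-2d (log2 difference 1.85, standard error 0.51), which was called in the narrower fit. *Aoah*, an enzyme that inactivates bacterial lipopolysaccharide, had 69.2 and 72.7 against 21.1 and 17.3. *B4galnt2*, a glycosyltransferase, had 63.6 and 93.9 against 12.6 and 25.9, and reached 1349 and 1100 in T_Dysf. *Fzd6*, a Wnt receptor, had 25.7 and 24.2 against 4.21 and 8.64. *Chl1* and *Rapsn* entered the group with very few reads: *Chl1* had 12 reads in the 2 Acute-7d libraries and 1 in Acute-2d (ratio 12.1, 95% interval 1.79 to 517, exact and for counting error only), and *Rapsn* had 38 and 5 (ratio 7.65, interval 3.01 to 24.9). *Klra7* and *Klre1*, the remaining members, are described with the NK-type receptors. Adjusted p-values of these 12 genes in the fit of all 8 libraries ran from 0.270 to 0.657.

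Of the 12 lower genes, 10 were called in the narrower fit (against 0.299% of all genes with a mean of at least 50). Of the 12 higher genes 3 were (against 0.150%). Both groups were picked for large differences in the same 4 libraries that this fit uses. These counts therefore describe the genes and are not a test. *Vldlr*, a lipoprotein receptor, had 72.5 and 99.97 normalized counts in Acute-7d and 795 and 1011 in Acute-2d, a log2 difference of -3.38 (standard error 0.78). *Acvrl1*, a receptor of the TGF-β family also called Alk1, had 60.2 and 75.7 against 494 and 884 (log2 difference -3.27, standard error 0.44), and *Igfbp4*, which binds insulin-like growth factors, had 124 and 222 against 1244 and 1551 (-3.06, standard error 0.66). In these 3 genes the Acute-2d libraries were also above Effector and T_Dysf, where the highest value was that of *Igfbp4* in Effector replicate 2, at 222. *Tgm2*, transglutaminase 2, had 170 and 324 against 1776 and 1382. *Muc2*, a mucin, had 88.1 and 97.9 against 511 and 664.

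*Slc6a19*, a transporter of neutral amino acids, had 74.8 and 106 normalized counts in Acute-7d and 501 and 484 in Acute-2d. *Cnn3*, an actin-binding calponin, had 26.8 and 36.4 against 253 and 280, and *Dnm1*, a dynamin, 40.2 and 36.4 against 244 and 358. *Tmem45a* and *Smtnl2* had 17.9 to 27.9 in the Acute-7d and 130 to 243 in the Acute-2d libraries. The remaining 2 were not called in either fit. *Grin1*, a subunit of the NMDA receptor, had 3.35 and 14.1 against 99.9 and 277, and *Batf3*, an AP-1 family factor, had 6 reads in the 2 Acute-7d libraries and 56 in Acute-2d (ratio of Acute-2d to Acute-7d 9.27, 95% interval 4.001 to 26.3, exact and for counting error only).

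Glycolysis genes were lower in Acute-7d without exception. Of the 24 genes of the list, all were in the table and 23 had a mean of at least 50. In all 23, both Acute-7d libraries lay below both Acute-2d libraries, against 19.0% of all genes, and 16 passed an unadjusted p under 0.05 in the lower direction, against 4.32%. The median log2 difference was -0.68, with single genes from -1.21 to -0.33, while the median over all genes with a mean of at least 50 was 0.00. It was -0.67 without Acute-7d replicate 1 and -0.67 without replicate 2, so the 2 Acute-7d libraries gave the same value. The Acute-2d libraries were less alike, with list medians of 0.19 in replicate 1 and 0.50 in replicate 2 on the log2 scale, relative to the mean of the 4 libraries. The list median was -0.84 without Acute-2d replicate 1 and -0.51 without replicate 2. No glycolysis gene was a DEG in the fit of all 8 libraries.

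The lower values ran from glucose uptake to lactate export. *Slc2a3*, a glucose transporter, had 7732 and 7735 normalized counts in Acute-7d and 11937 and 15571 in Acute-2d (log2 difference -0.82, standard error 0.21). *Tpi1*, triose phosphate isomerase, had 9106 and 9442 against 13978 and 18322, and *Gapdh* 4594 and 5070 against 7186 and 8670. *Pgk1* (chromosome X, 106187100 to 106203699), phosphoglycerate kinase, had 6711 and 6518 against 12103 and 14338 (-0.99, standard error 0.21). For *Ldha* (chromosome 7, 46841475 to 46855627), which makes lactate, the values were 20346 and 20688 against 29662 and 36317 (-0.68, standard error 0.14). *Slc16a3*, which exports lactate, had 1477 and 1732 against 2590 and 5287, the lowest difference of the list (-1.21, standard error 0.35). *Pdk1* (chromosome 2, 71873224 to 71903858), which holds pyruvate out of the mitochondrial citric acid cycle, had 5383 and 5629 against 9586 and 11050 (-0.90, standard error 0.14). In each of these genes the 2 Acute-7d libraries were close to each other and below the lower of the Acute-2d libraries, and T_Dysf was lower again (*Pdk1* 915 and 786, *Tpi1* 2499 and 2309). In the narrower fit *Pdk1* and *Pgk1* had adjusted p-values of 0.0322 and 0.0318, with differences just under 2-fold.

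Many glycolysis genes are targets of hypoxia-inducible factor 1 (HIF-1), which binds the core letters ACGTG or GCGTG of the hypoxia response element. *Pdk1*, *Ldha* and *Pgk1* are textbook targets among the genes above, so the 250 bases before their first listed RefSeq start are shown for them (GRCm38.p6, all on the plus strand, 5′ to 3′). Capitals mark ACGTG or GCGTG on either strand. The windows are chr2:71872974-71873223 for *Pdk1*, chr7:46845554-46845803 for *Ldha* and chrX:106186850-106187099 for *Pgk1*.
Pdk1: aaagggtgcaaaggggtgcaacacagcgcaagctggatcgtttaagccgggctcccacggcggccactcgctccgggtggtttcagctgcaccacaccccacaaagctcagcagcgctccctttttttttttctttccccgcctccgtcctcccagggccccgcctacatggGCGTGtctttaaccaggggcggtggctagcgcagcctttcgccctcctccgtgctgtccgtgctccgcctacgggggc
Ldha: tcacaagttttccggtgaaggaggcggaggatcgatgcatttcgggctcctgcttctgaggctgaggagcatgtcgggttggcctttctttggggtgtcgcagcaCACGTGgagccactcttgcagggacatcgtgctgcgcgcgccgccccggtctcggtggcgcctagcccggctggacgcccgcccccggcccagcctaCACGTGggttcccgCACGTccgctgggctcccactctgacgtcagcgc
Pgk1: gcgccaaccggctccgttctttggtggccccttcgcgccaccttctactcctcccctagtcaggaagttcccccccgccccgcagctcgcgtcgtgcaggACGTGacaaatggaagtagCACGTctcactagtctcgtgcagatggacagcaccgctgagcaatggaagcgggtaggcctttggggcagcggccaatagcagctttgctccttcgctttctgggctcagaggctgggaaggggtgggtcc
In CACGTG the letters ACGTG occur on both strands, and each such hexamer in *Ldha* is counted once per strand. With 1 window per gene, ACGTG on either strand occurred in 10 of the 22 glycolysis genes with a window (45.5%), and in 22.9% of the 8636 genes with a mean of at least 50 and a window. ACGTG or GCGTG occurred in 17 of the 22 (77.3%) and in 58.7% of the 8636. *Pdk1* had no ACGTG and 1 GCGTG. The shares were not tested, and the windows were not matched for base composition. A match is a string of letters and not a binding site, and binding of HIF-1 was not measured. The part of HIF-1 in the lower glycolysis values was not tested.

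A further list held 23 hypoxia-inducible genes, known to respond to HIF-1. It was added after the values were seen and includes *Vldlr* and *P4ha2*, named above for their large differences. Its counts therefore describe these genes and are not a test. Of the 21 with a mean of at least 50, none was higher without overlap and 19 were lower (against 19.0% of all genes). Of these, 9 were lower by at least 2-fold (against 1.31%). The median log2 difference was -0.89 (-0.85 without Acute-7d replicate 1 and -0.93 without replicate 2). In the narrower fit 7 genes were called (against 0.299% of all genes in the lower direction). *Vldlr*, described above, is one of these. *P4ha2*, a collagen prolyl hydroxylase, had 310 and 341 normalized counts in Acute-7d and 1463 and 2461 in Acute-2d. *Ndrg1* had 1187 and 1504.5 against 3435 and 6080. *Ero1l*, an oxidase of the endoplasmic reticulum, had 2755 and 3027 against 5634 and 7333 (log2 difference -1.15, standard error 0.15), *Bnip3*, which marks mitochondria for removal, 1683 and 1802 against 3284 and 4000, and *Ak4*, an adenylate kinase, 494 and 458 against 1058 and 1370. Only *Ddit4* and *Hilpda* overlapped, and in both the Acute-2d libraries differed over 2-fold. Acute-2d replicate 2 was above replicate 1 in this list too, with medians of 0.77 and 0.21 relative to the mean of the 4 libraries, and the list median was -1.20 without Acute-2d replicate 1 and -0.52 without replicate 2.

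**Figure D3:**
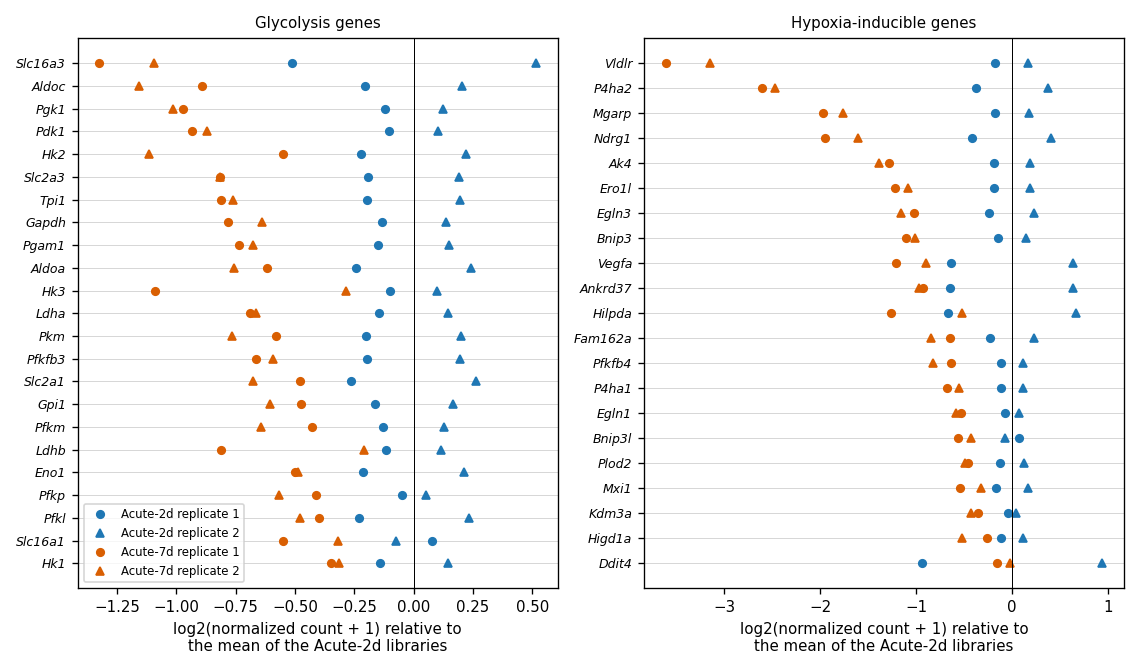
Each of the 23 glycolysis genes (left) and 21 hypoxia-inducible genes (right) with a mean of at least 50 in the 4 Acute libraries, as log2(normalized count + 1) relative to the mean of the Acute-2d libraries. All orange points (Acute-7d) of the glycolysis genes lie to the left of the blue points (Acute-2d) of the same gene, and only *Ddit4* and *Hilpda* overlap on the right.

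Receptors of the NK type, which CD8 T cells acquire with effector differentiation, were the list with the highest median. Of its 22 genes, 14 had a mean of at least 50, 6 of these were higher without overlap (against 18.6% of all genes) and 1 was lower, and all 6 passed an unadjusted p under 0.05 (against 3.71%). The median log2 difference was 0.84, but it was 1.40 without Acute-7d replicate 1 and 0.08 without replicate 2, so it came mostly from replicate 2. The 6 genes themselves were higher in both libraries. *Klrc1* (chromosome 6, 129666015 to 129678973), which encodes the inhibitory receptor NKG2A, had 1576 and 1974 normalized counts in Acute-7d and 649 and 496 in Acute-2d, a log2 difference of 1.63 (standard error 0.52). *Klrc2*, the activating NKG2C, had 636 and 688 against 261 and 176 (1.62, standard error 0.54). *Klrb1c*, which encodes NK1.1, had 1005 and 1384 against 430 and 393 (1.52, standard error 0.55). These 3 were called in the narrower fit.

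*Klrk1*, which encodes the activating receptor NKG2D, had 4437 and 4196 normalized counts in Acute-7d and 2582 and 2094 in Acute-2d, and *Klre1* had 71.4 and 104 against 22.1 and 13.0. *Klra7*, a Ly49 receptor, had 52.4 and 115 against 8.43 and 9.72, the largest of the 12 higher differences (2.97, standard error 0.56, limma adjusted p = 0.354). *Klrg1*, a marker of terminal effector cells with a mean under 50, had 35.7 and 57.6 against 24.2 and 13.0. *Cd7* alone was lower without overlap. *Klrd1*, which encodes the CD94 partner of the NKG2 chains, had 3138 and 3720 against 3822 and 3151, and overlapped between the conditions. *Klrc1* and *Klra7* were higher in T_Dysf than in any Acute library, whereas *Klrb1c* had 243 and 544 there. Of the NK cell markers, all 5 were higher in Acute-7d without overlap. The share among genes with a mean of at least 50, which only 2 of the 5 reached, was 18.6%. The summed level of the 5 was 4629 and 3645 against 1810 and 1570. Most of this sum was *Eomes* (3510 and 2071 against 1321 and 1127), described below with the memory genes, and *Klrb1c*. The defining gene *Ncr1* stayed at 20.0 to 30.1 in 3 libraries and 105 in Acute-7d replicate 2, and *Klra8* at 8.08 or less. The part of NK cells in these values was not tested. In bulk RNA a change in the number of cells of a type and in the RNA per cell cannot be told apart.

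Genes for killing were higher more often than lower. Of 18 granule and cytotoxic genes with a mean of at least 50, 9 were higher and 2 lower without overlap (against 18.6% and 19.0%). An unadjusted p under 0.05 was passed by 5 and 1 (against 3.71% and 4.32%). The median log2 difference was 0.19 (0.37 without Acute-7d replicate 1 and 0.11 without replicate 2), and no gene was a DEG. *Prf1* (chromosome 10, 61297833 to 61304680), which encodes the pore-forming perforin, had 2835 and 3591 normalized counts in Acute-7d and 1623 and 1642 in Acute-2d, a log2 difference of 0.97 (standard error 0.29), and 5876 and 5767 in T_Dysf. *Gzmk*, granzyme K, had 134 and 69.7 against 48.4 and 48.6. *Gzma*, granzyme A, had 13312 and 10898 against 6610 and 6817 (0.84, standard error 0.36), and *Tnfsf10*, the death ligand TRAIL, had 2100 and 1896 against 1227 and 909. *Fasl*, another death ligand, had 1493 and 1684 against 806 and 1263, and *Cst7*, cystatin F, 3079 and 3024 against 2229 and 2398. *Gzmb*, granzyme B, overlapped between the conditions, with 29274 and 27049 against 27601 and 31971 (-0.08, 95% interval -0.64 to 0.48). *Lamp1*, the degranulation marker CD107a, had 3476 and 3437 against 3197 and 3186, a log2 difference of 0.12. *Srgn*, the proteoglycan of the granule core, was lower, with 6697 and 7315 against 8609 and 8419, and *Gzmc* was lower at 3107 and 4551 against 7923 and 6818.

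Cytokine genes had a small median difference. Of 17 with a mean of at least 50, 5 were higher and 1 lower without overlap (against 18.6% and 19.0%). The median was 0.15 (0.03 without Acute-7d replicate 2 and 0.27 without Acute-2d replicate 2). *Ifng* (chromosome 10, 118441046 to 118445892), interferon-γ, had 859 and 556 normalized counts in Acute-7d and 311 and 221 in Acute-2d, a log2 difference of 1.40 (standard error 0.31, limma adjusted p = 0.417). *Spp1*, osteopontin, had 2867 and 3500 against 2256 and 1845. *Csf1*, which encodes a growth factor of macrophages, had 1421 and 1300 against 592 and 602 and was called in the narrower fit, and *Ccl5* had 18529 and 16857 against 8830 and 9923. *Tnf* had 881 and 598 against 835 and 914, and its direction depended on the library: -0.55 without Acute-7d replicate 1 and 0.01 without replicate 2.

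Inhibitory receptors did not all lie in 1 direction. Of 18 genes, all with a mean of at least 50, 8 were higher and 3 lower without overlap (against 18.6% and 19.0%). An unadjusted p under 0.05 was passed by 2 and 1 (against 3.71% and 4.32%). The median was 0.27 (0.44 without Acute-7d replicate 1 and 0.09 without replicate 2). *Havcr2* (chromosome 11, 46454935 to 46481255), Tim3, had 484 and 595 normalized counts in Acute-7d and 311 and 263 in Acute-2d (0.91, standard error 0.31). *Tigit* (chromosome 16, 43648867 to 43664146) had 425 and 351 against 236 and 153 (1.02, standard error 0.38). *Pdcd1* (chromosome 1, 94038305 to 94052553), PD-1, had 505 and 598 against 352 and 462, a log2 difference of 0.45 (95% interval -0.07 to 0.96). In T_Dysf these 3 genes had 2665 to 4022 normalized counts, so both Acute conditions were far below it. *Ctla4* went the other way, with 2554 and 2348 in Acute-7d and 3930 and 4192 in Acute-2d (-0.73, standard error 0.12), as did *Lag3*, with 1415 and 1563 against 1807 and 2270. *Cd101* and *Cd38* overlapped between the conditions, with differences of 0.24 and 0.37, and the latter changed sign without Acute-7d replicate 2 (-0.06).

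**Figure D4:**
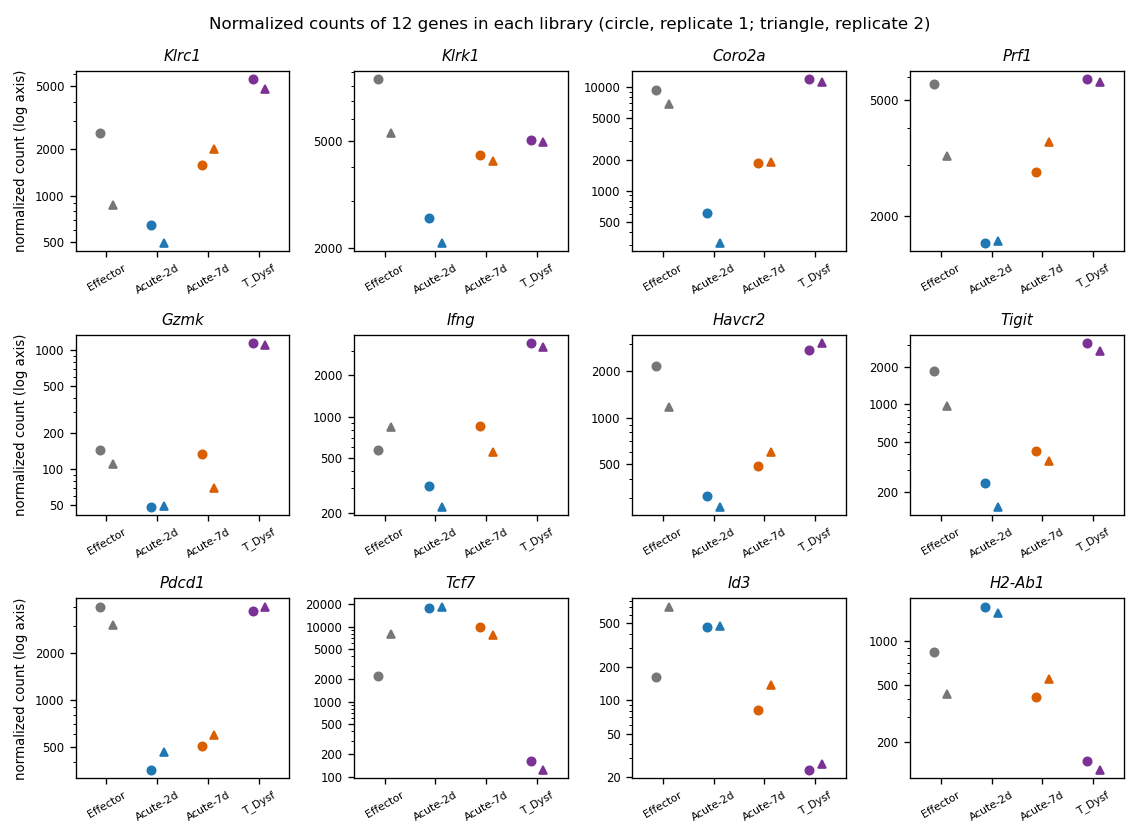
Normalized counts (log axis, a separate scale for each gene) of 12 genes in every library, by condition, with circles for replicate 1 and triangles for replicate 2. The Acute-7d points lie above the Acute-2d points from *Klrc1* to *Pdcd1* and below them in *Tcf7*, *Id3* and *H2-Ab1*, without overlap in any of the 12.

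The memory program was partly lower in Acute-7d. Of 21 memory and stem-like genes with a mean of at least 50, 11 were lower and 3 higher without overlap (against 19.0% and 18.6%). An unadjusted p under 0.05 was passed by 4 in the lower and 2 in the higher direction (against 4.32% and 3.71%). The median was -0.15 (-0.18 without Acute-7d replicate 1). *Tcf7* (chromosome 11, 52252371 to 52283014), which encodes Tcf1, had 9991 and 7789 normalized counts in Acute-7d and 17888 and 18473 in Acute-2d, a log2 difference of -1.04 (standard error 0.63), and was called in the narrower fit. It had 161 and 122 in T_Dysf. *Id3*, a partner of the memory program that restrains E proteins, had 82.6 and 137 against 467 and 474 (-2.13, standard error 0.72) and was called there as well. *Ccr7*, which guides cells to lymph nodes, had 1718 and 1790 against 3072 and 5304 (-1.20, standard error 0.76). *Satb1*, a chromatin organizer, had 5805 and 5863 against 7625 and 7394 (-0.36, standard error 0.04), *Foxo1*, which drives homing and survival genes, 3770 and 3918 against 4372 and 4154, and *Lef1*, the relative of Tcf1, 2281 and 2846 against 3454 and 3297. *Slamf6*, which encodes Ly108, had 143 in both Acute-7d libraries against 227 and 162 (-0.42, standard error 0.33).

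Other memory genes overlapped or went the other way. *Il7r*, the receptor for the survival cytokine IL-7, had 5993 and 6576 normalized counts in Acute-7d and 5885 and 6546 in Acute-2d, a log2 difference of 0.02 (95% interval -0.24 to 0.27), and *Cd27*, a costimulatory receptor, 3079 and 2747 against 2931 and 3280. *Cd44*, the adhesion molecule that marks antigen-experienced cells, was lower without overlap, with 1382 and 1418 against 1880 and 1869 (-0.42, standard error 0.04, limma adjusted p = 0.0681). Higher in Acute-7d were *Eomes*, a T-box factor of both memory and exhausted cells, with 3510 and 2071 against 1321 and 1127 (1.14, standard error 0.32), and *Ly6c2*, an antigen of effector and memory cells, with 35684 and 32949 against 24986 and 25805.

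Genes that T cell receptor signals induce lay in both directions. Of 29 with a mean of at least 50, 3 were higher and 8 lower without overlap (against 18.6% and 19.0%). An unadjusted p under 0.05 was passed by 1 and 3 (against 3.71% and 4.32%). The median was -0.12. It was 0.0081 without Acute-7d replicate 2 and -0.02 without Acute-2d replicate 1. *Spry2*, a brake on MAP kinase signaling, was the exception, with 616 and 527 normalized counts in Acute-7d and 220 and 175 in Acute-2d (1.53, standard error 0.47), and was called in the narrower fit. *Cd69*, an early activation antigen, had 5412 and 5367 against 7469 and 7178 (-0.44, standard error 0.13), *Tnfrsf18*, which encodes the costimulatory receptor GITR, 2267 and 2431 against 2708 and 3315, and *Ikzf2*, an Ikaros factor, 187 and 262 against 559 and 355. *Tox*, a factor of exhaustion, had 51.3 and 107 against 85.3 and 55.1, and its sign depended on the library left out. Of 19 effector and residency transcription factors, 6 were higher and 2 lower without overlap (against 18.6% and 19.0%). Their median was 0.29 (0.10 without Acute-7d replicate 1 and 0.14 without Acute-2d replicate 2). The 2 that passed an unadjusted p were *Ikzf3*, with 2537 and 2578 against 1819 and 1630, and *Runx1*, with 967 and 948 against 770 and 796.

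Genes for migration and adhesion differed one by one. Of 13 chemokine and egress receptors with a mean of at least 50, 5 were higher and 5 lower without overlap (against 18.6% and 19.0%). *Cxcr4*, which holds cells in bone marrow, had 438 and 377 normalized counts in Acute-7d and 637 and 950 in Acute-2d. *Gpr183*, which senses oxysterols, had 934 and 611 against 324 and 422, and *P2ry10*, a receptor for lysophospholipids, 1783 and 2047 against 2712 and 2261. *Cx3cr1*, a receptor of effector cells with a mean under 50, overlapped at 6.69 and 13.1 against 13.7 and 4.32. Among 16 integrins 7 were higher and 5 lower without overlap (against 18.6% and 19.0%). *Itga1*, the collagen receptor chain CD49a, had 2889 and 2065 against 1334 and 1332 (0.87, standard error 0.20), and *Itgb1*, its partner, 14785 and 13938 against 8932 and 9716. *Itgax*, CD11c, had 669 and 1107 against 296 and 391, and *Itgav* 1448 and 1756 against 1334 and 1150. *Itgb3* had 2201 and 2333 against 3935 and 4064, and *Itga5*, the fibronectin receptor chain, 64.7 and 75.7 against 151 and 136.

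Of 25 genes for cytokine receptors and their regulators, 10 were higher and 6 lower without overlap (against 18.6% and 19.0%). The median was 0.10 (0.02 without Acute-7d replicate 1 and 0.21 without replicate 2). Both chains of the IL-18 receptor were higher: *Il18r1* had 6376 and 5827 normalized counts against 4591 and 4651, and *Il18rap* 4382 and 4062 against 2876 and 2812. *Tgfbr1*, a TGF-β receptor, had 723 and 692 against 530 and 355, and *Il10rb* 2198 and 2308 against 1746 and 1853. *Il6st*, the shared chain gp130 of the IL-6 receptor family, had 733 and 688 against 1203 and 1081.

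In the interferon-stimulated and the lipid synthesis lists, more genes were lower than higher. Of 38 interferon-stimulated genes, 3 were higher and 10 lower without overlap (against 18.6% and 19.0%). Their median was -0.14 (-0.03 without Acute-7d replicate 2 and 0.06 without Acute-2d replicate 1). *Mx1*, an antiviral GTPase whose entry is typed as a transcribed pseudogene in the reference, was the only one to pass an unadjusted p, with 1448 and 1312 normalized counts against 1141 and 868. Of 31 sterol and fatty acid synthesis genes with a mean of at least 50, 3 were higher and 14 lower without overlap (against 18.6% and 19.0% of all genes), with a median of -0.18 (-0.20 without Acute-7d replicate 1 and -0.09 without Acute-2d replicate 2). The 4 that passed an unadjusted p were all lower: *Fads2*, a fatty acid desaturase, with 15.6 and 28.3 against 52.7 and 70.2, *Scd2*, another desaturase, with 5193 and 4259 against 6251 and 7795, *Elovl6*, which elongates fatty acids, with 321 and 243 against 388 and 371, and *Cyp51*, a sterol demethylase, with 385 and 431 against 550 and 500.

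Proliferation genes differed more between the Acute-7d replicates than between the conditions. Of 50 genes, none was higher and 1 was lower without overlap (against 18.6% and 19.0% of all genes). The median log2 difference was -0.27, but it was 0.36 without Acute-7d replicate 1 and -0.91 without replicate 2. *Mki67*, which encodes Ki67, had 1096 and 3371 normalized counts in Acute-7d and 3050 and 1817 in Acute-2d, so the Acute-2d values lay between those of the Acute-7d replicates. The Effector libraries, with 16144 and 28620, and the T_Dysf libraries, with 6848 and 6734, were above all 4.

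**Figure D5:**
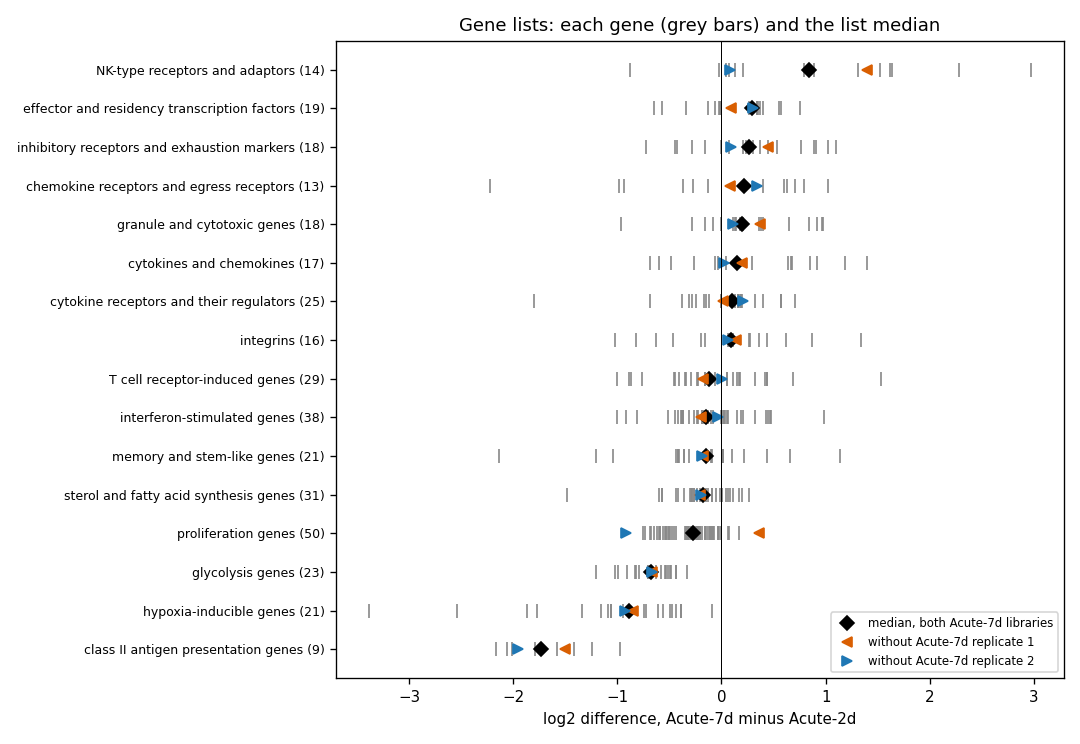
The log2 difference (Acute-7d minus Acute-2d) of each gene with a mean of at least 50 (grey bars) in 16 gene lists, with the number of genes in brackets and the list median as a black diamond. Triangles are the medians without Acute-7d replicate 1 (orange) or 2 (blue): they coincide for glycolysis genes (-0.67 and -0.67) and part for proliferation genes (0.36 and -0.91) and NK-type receptors (1.40 and 0.08).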

How the data were processed

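Libraries of poly(A) RNA from sorted P14 cells were sequenced on an Illumina NovaSeq. The authors used STAR for alignment to mm10 and Partek Flow for quantification on RefSeq transcripts, and applied the median-ratio scaling of DESeq2 (tool names also in the submitters' processing notes). The deposited values are a signal: estimated read counts per gene divided by the size factor of each library. The methods give a filter on a maximum under 50, but the table holds lower genes too. Between 72.4% and 74.9% of values under 1000 reads in the 4 Acute libraries were whole multiples of 1 read (tolerance 0.01), so count models were not fitted. No column was left out.

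Values were tested with limma 3.58.1 (R 4.3.3, lmFit and eBayes with trend, two-sided) on log2(normalized count + 1), with 4 group means, 8 libraries, 24303 genes and 4 residual degrees of freedom. With 2 libraries against 2, an exact permutation test cannot go below 0.333. On simulated data with 200 of 24303 genes changed 4-fold between Acute-7d and Acute-2d, 129 were called and 7 unchanged genes were called. The changed genes were drawn from those with a mean of at least 50. Noise was normal, with 1 standard deviation per gene for all libraries. The recovery therefore does not cover changes of low genes or a library that stands apart. Folds are on the log2(value + 1) scale, which understates changes of low genes.

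Named genes were the DEGs with a mean of at least 50, the 12 largest separated differences in each direction among genes with a mean of at least 50 and an unadjusted p under 0.05 (sex-linked genes and pseudogenes left out), list members with an unadjusted p under 0.05, and a set of fixed names. Others were named after their values were seen. The gene lists, 14 set at the outset and 2 added (hypoxia-inducible, class II), were chosen with earlier results of these data known. Some genes are not reported here. Positions are from GENCODE vM21 (23629 symbols matched), gene types from RefSeq (20465 matched). Alternatives were pseudocounts of 0.1 and 10, equal 75th percentiles, quantile normalization, other filters, a fit of the 2 conditions, the replicate block, a RESUB term and leaving out each library. Added after the data were seen were protein-coding genes, a maximum of at least 50, and the 2 conditions alone with a mean of at least 50. Replicate numbers were not taken as pairs: the replicate differences correlated at -0.20 to 0.20 over 6 pairs of conditions (0.12 between Acute-2d and Acute-7d), across genes, which are not independent. Tables and figures used Python 3.11.15, numpy 2.4.6, pandas 2.3.3, scipy and matplotlib 3.10.9.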

Additional observations from a re-analysis of the deposited data

How the results depend on the processing

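The count of 41 DEGs depended on the treatment of low values and on the libraries in the fit. It was 81 with a pseudocount of 0.1, 4 with a pseudocount of 10, 8 after quantile normalization, 1 among genes with a mean of at least 50, 147 in a fit of the 2 conditions alone, 168 (133 higher and 35 lower) with a term for the RESUB prefix, 910 at an unadjusted p, and, in alternatives chosen after the data were seen, 26 among protein-coding genes and 1 among genes with a maximum of at least 50. It ran from 61 to 376 when 1 library was left out (28 higher and 348 lower without Acute-2d replicate 2). With the replicate number as a block it was 29, all among the 41, but the numbers were not taken as pairs. The 237 separated genes became 99 at a mean of at least 200 and 261 to 544 without 1 Acute library (390 without Acute-2d replicate 1 and 544 without Acute-7d replicate 2). The median of cytokine genes was 0.22 after quantile normalization. Without 1 Acute library, list medians ran from 0.077 to 1.40 for NK-type receptors, -0.20 to 0.0081 for T cell receptor-induced genes, 0.087 to 0.34 for chemokine receptors, -2.25 to -1.37 for class II genes, 0.018 to 0.21 for cytokine receptors, 0.027 to 0.27 for cytokines, 0.10 to 0.31 for transcription factors, -0.84 to -0.51 for glycolysis, 0.11 to 0.37 for granule genes, -1.20 to -0.52 for hypoxia-inducible genes, 0.089 to 0.44 for inhibitory receptors, 0.0023 to 0.27 for integrins, -0.28 to 0.064 for interferon-stimulated genes, -0.19 to -0.17 for memory genes and -0.91 to 0.36 for proliferation genes. The sign of 8 named genes turned in 1 or more alternatives: *Gzmb* was 0.025 after quantile normalization, *Mki67* 0.52 and *Xist* 0.32 with the RESUB term, and leave-one-out values ran from -0.18 to 0.028 for *Gzmb*, -1.10 to 0.52 for *Mki67*, -8.78 to 0.32 for *Xist*, -0.064 to 0.81 for *Cd38*, -0.41 to 0.64 for *Tox*, -0.060 to 0.093 for *Il7r*, -0.55 to 0.012 for *Tnf* and -0.49 to 0.97 for *Cx3cr1*. The cause of these shifts was not tested. Acute-7d was the only condition with both a prefixed and an unprefixed library, so the RESUB term was set by that pair alone. The fit with this term is therefore the same comparison as leaving out Acute-7d replicate 1. It is not a separate adjustment for the prefix. Calls of genes at or under 3 reads are limited by depth.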

Other observations

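Genes for antigen presentation on class II molecules were lower in Acute-7d. On a list of 10 such genes, chosen after their values were seen, 9 had a mean of at least 50 and all 9 were lower without overlap, against 19.0% of all genes, with a median log2 difference of -1.74 (-1.50 without Acute-7d replicate 1). Because the genes were chosen with their values known, this count describes them and is not a test against that share. *H2-Ab1*, a class II β chain, had 411 and 547 normalized counts in Acute-7d and 1731 and 1557 in Acute-2d (log2 difference -1.79, standard error 0.35). *H2-Oa* and *H2-Ob*, which modulate peptide loading, had 422 and 432 against 921 and 1104, and 241 and 310 against 808 and 1034. These 3 were called in the fit of the 2 conditions alone. *Cd74*, the invariant chain, had 273 and 459 against 2163 and 521, so its Acute-2d libraries differed over 2-fold, as did those of *H2-Aa* and *H2-Eb1*. *Ciita*, the master regulator of class II genes, had 13.4 and 22.2 against 53.7 and 48.6.

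Markers of cells that carry class II molecules were read beside these values. Of 8 B cell markers, none was higher and 3 were lower without overlap (against 18.6% and 19.0% of genes with a mean of at least 50, which 2 of them reached). The 3 were *Ighm*, *Cd79b* and *Cd79a*, the last at 12.3 and 10.1 normalized counts against 15.8 and 17.3. The summed level was 2427 and 2467 in Acute-7d and 3589 and 3825 in Acute-2d, nearly all of it *Ighm* (2364 and 2392 against 3466 and 3711). *Cd79b*, a chain of the B cell receptor complex, had 30.1 and 38.4 against 72.7 and 83.1, and *Ms4a1*, *Pax5* and *Blk* were at 16.9 or less in the 4 libraries. Of 9 dendritic cell genes, 2 were higher and 4 lower without overlap (against 18.6% and 19.0% of genes with a mean of at least 50, which 4 of them reached). Their summed level, which includes *H2-Aa*, *H2-Ab1* and *Cd74*, was 1177 and 1522 against 4747 and 2600. *Clec9a*, *Siglech* and *Cd209a* were at 3.03 or less, and *Ccr9* was lower at 14.9 and 8.38 against 17.2 and 18.5. *Zbtb46* had 35.7 and 23.2 against 20.0 and 21.6, and *Xcr1* had 354 and 330 against 265 and 309. *Lyz2*, a gene of monocytes and macrophages, had 199 and 330 against 438 and 228, and the summed level of the 9 monocyte and macrophage markers was 360 and 548 against 634 and 404. The part of other cells in the class II values was not tested.

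Further genes called in the fit of the 2 conditions alone, named after their values were seen, included secreted and surface proteins. *Lif*, a cytokine of the IL-6 family, had 1131 and 631 normalized counts in Acute-7d and 3910 and 3437 in Acute-2d. *Nrn1*, neuritin, had 1195 and 1845 against 5891 and 5649. *St6gal1*, a sialyltransferase, had 509 and 466.5 against 1726 and 1597. *Fas*, a death receptor, had 114 and 108 against 324 and 334. *Dntt*, a DNA polymerase of immature lymphocytes, had 21.2 and 50.5 against 349 and 348. *Wnt10b*, a Wnt ligand, was higher at 744 and 540 against 187 and 192, and *Samd3* at 711 and 840 against 201 and 277.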
